A study of Mus musculus with 16 samples.

Results

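NF-kB is a family of transcription factors, and the genes described here are its subunits, the IkB proteins that hold them, the kinases and ubiquitin machinery that release them, the proteins that switch the pathway off, and one target, Icam1. They were picked by symbol from a fixed list of 33 genes in a table of 19540 genes. Of these, 32 were found. Traf5 was not analysed here. The libraries came from regulatory T cells (Treg, which carry Foxp3 and hold immune responses in check) and from conventional T cells (Tconv), both sorted from visceral adipose tissue (VAT, the fat around the abdominal organs) of C57BL/6JRcc mice aged 12 weeks. The study deleted Hpgd, which encodes an enzyme that inactivates prostaglandins, in Treg, by crossing a floxed Hpgd allele (Hpgd fl) with Foxp3-YFP-Cre, a Cre recombinase driven by the Foxp3 gene. The label for the mouse line was the same in every sample, so the genotype of a library rests on its title, and whether WT (wild type) mice carried the Cre or the floxed allele is not given in the sources used here.

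Treg were sampled in 3 WT and 4 KO libraries and Tconv in 4 WT and 5 KO libraries, where KO marks mice with the deletion in Treg. The KO label of a Tconv library therefore names the mouse, since the Cre is not directed at Tconv. The series text gives 5 deleted and 4 WT animals, but no label ties a library to an animal, so p-values measure the spread between these libraries. Depth ran from 3.39 to 9.26 M reads in all libraries except Tconv KO 3, which had 56.7 M. Foxp3 read 407 ± 182 in Treg WT (mean ± SD of the deposited normalised value, n = 3), 403 ± 119.7 in Treg KO (n = 4), 15.5 ± 18.4 in Tconv WT (n = 4) and 1.98 ± 1.73 in Tconv KO (n = 5). Hpgd read 73.1, 56.0 and 4.31 in the Treg WT libraries against 1.00 to 3.41 in Treg KO. The library labelled Treg WT 3 thus held only 3 reads of Hpgd and goes against its label, and counts of members that use it are given with and without it. Its Foxp3 value, 616, was the highest of all libraries.

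In a resting cell, NF-kB dimers are held in the cytoplasm by IkB proteins. Receptors such as the T cell receptor with Cd28 or those of the tumour necrosis factor (TNF) family recruit adaptors and ubiquitin ligases, which activate the IkB kinase (IKK) complex. IKK marks IkB for destruction and frees Rela and Rel dimers to enter the nucleus, while a slower, alternative branch through Map3k14 processes the Nfkb2 precursor and frees Relb. Several IkB genes and brakes such as Tnfaip3 are themselves NF-kB targets, and in mice Rel and Rela are needed for Treg to form and to keep their identity.

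The members that were higher in Treg include feedback genes whose promoters hold the kB consensus motif, the sequence that NF-kB dimers bind. The motif was searched on both strands in RefSeq promoters (GRCm38.p6, the same build as mm10), from 250 bases before to 50 bases after each annotated start, and matches may overlap each other. It was found in 11 of the 27 members with a promoter in the table (40.7%), against 9.55% of 27025 genes. The shares were 9 of 16 (56.2%) for members higher in Treg in at least one genotype and 2 of 11 (18.2%) for the other members. With calls made without the library labelled Treg WT 3 they were 9 of 15 and 2 of 12. Rela, Nfkbib, Map3k14, Traf1, Birc2, Birc3 and Icam1 were also higher in Treg in at least one genotype and had no match. A gene with several annotated starts had several windows, and a match in any of them counted. The 27 members had 41 windows and the 27025 genes had 32851, so the shares per gene depend on the number of windows. Of all windows, 8.46% held a match. Nfkb1, Relb, Ikbkb, Nfkbiz and Map3k8 had no promoter in the table. The stretches below carry the matches of 2 subunits, 3 IkB genes and a brake that were higher in Treg, read 5′ to 3′ in the direction of the gene, with the match in capitals.
Nfkbia, chr12:55492648-55492797, minus strand: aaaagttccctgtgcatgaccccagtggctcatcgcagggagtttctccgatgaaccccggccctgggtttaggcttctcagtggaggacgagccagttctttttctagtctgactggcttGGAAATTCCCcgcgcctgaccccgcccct
Nfkb2, chr19:46304692-46304721, plus strand: cgtcacGGGAATTCCCCccctcggggggcc
Rel, chr11:23770971-23771119, minus strand: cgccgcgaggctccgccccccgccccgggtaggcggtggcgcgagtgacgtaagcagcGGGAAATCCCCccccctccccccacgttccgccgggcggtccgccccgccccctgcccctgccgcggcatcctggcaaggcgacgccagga
Nfkbie, chr17:45555550-45555699, plus strand: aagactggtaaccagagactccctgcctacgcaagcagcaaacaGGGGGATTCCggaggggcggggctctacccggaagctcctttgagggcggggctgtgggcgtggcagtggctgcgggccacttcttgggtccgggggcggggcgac
Nfkbid, chr7:30422156-30422305, plus strand: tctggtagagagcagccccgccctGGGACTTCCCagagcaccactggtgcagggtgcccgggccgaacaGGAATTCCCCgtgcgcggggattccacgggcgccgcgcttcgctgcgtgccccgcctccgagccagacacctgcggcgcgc
Tnip1, chr11:54962941-54963090, minus strand: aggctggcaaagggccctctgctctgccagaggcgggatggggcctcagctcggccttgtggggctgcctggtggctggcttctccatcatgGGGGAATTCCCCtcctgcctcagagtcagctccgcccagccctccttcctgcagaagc
The Nfkbia match lies at positions −29 to −20 from its start, the Rel matches at −92 to −82, the Nfkbie match at −106 to −97 and the Tnip1 matches at −58 to −47. The Nfkbid stretch belongs to one of 3 annotated starts, and the Nfkb2 stretch lies in an untranslated exon of another annotated transcript. A match says that the letters are there, and binding was not measured.

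Where members passed the test between Treg and Tconv from the same fat, they were higher in Treg. In WT mice these were 4 of 5 subunits, 3 of 6 IkB genes, 2 of 10 adaptors and ubiquitin enzymes and Icam1, with 0 of 6 kinases and 0 of 4 brakes. In KO mice they were 5 of 5 subunits, 6 of 6 IkB genes, 2 of 6 kinases, 3 of 10 adaptors and ubiquitin enzymes, 2 of 4 brakes and Icam1. In WT mice 10 of 32 members were higher in Treg and 0 were lower (31.2% of the members, where 4.18% of 14319 genes tested were called, 2.2% were called higher and 1.98% lower). In KO mice 19 of 32 were higher and 0 were lower (59.4%, where 6.81% of genes were called, 4.16% higher and 2.65% lower). The median log2 difference of the members was 0.98 in WT and 1.02 in KO, against −0.004 and 0.035 over all genes tested, and 26 and 27 of 32 were above 0, against 49.5% and 52.3% of all genes. Without the library labelled Treg WT 3 the median in WT was 0.828, with 25 above 0. A gene was called at an adjusted p under 0.05 from limma with Benjamini-Hochberg adjustment over all genes tested, and log2 differences are of the value plus 1.

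The count in WT mice was sensitive to single libraries and to the fit. It was 4 (Nfkb1, Nfkb2, Rel and Icam1) without the library labelled Treg WT 3, where 2.37% of all genes were called and 1.04% higher. It was 6 without Tconv WT 2 (446 genes called in all) and 6 without Tconv WT 4 (418 genes). It was 14 without Treg WT 2 (664 genes) or without Tconv WT 3 (583 genes), where the main fit called 599 genes in either direction. With voom on whole reads the same 4 members were called in WT, and with the WT groups fitted alone only Icam1 was. These 2 fits are not repeated beside the WT calls below. In KO mice the count stayed between 14 and 19, and it was 14 without Treg KO 3, where 652 genes were called in all. Of the members called higher in WT, 9 were also called in KO, which is 90% of the WT calls and 47.4% of the KO calls, and Birc2 was the exception. For all genes tested, 238 were called higher in both, 75.6% of the WT calls and 40% of the KO calls. Without the library labelled Treg WT 3, all 4 members called in WT were also called in KO. For all genes tested, 122 were then called higher in both, where 1.04% of 14319 were called higher in WT. A call in one genotype and not in the other is not a difference between them: the test of that difference, which equals the difference between the deletion effects in Treg and in Tconv, called 0 of 32 members and 0 genes in all.

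**Figure D1:**
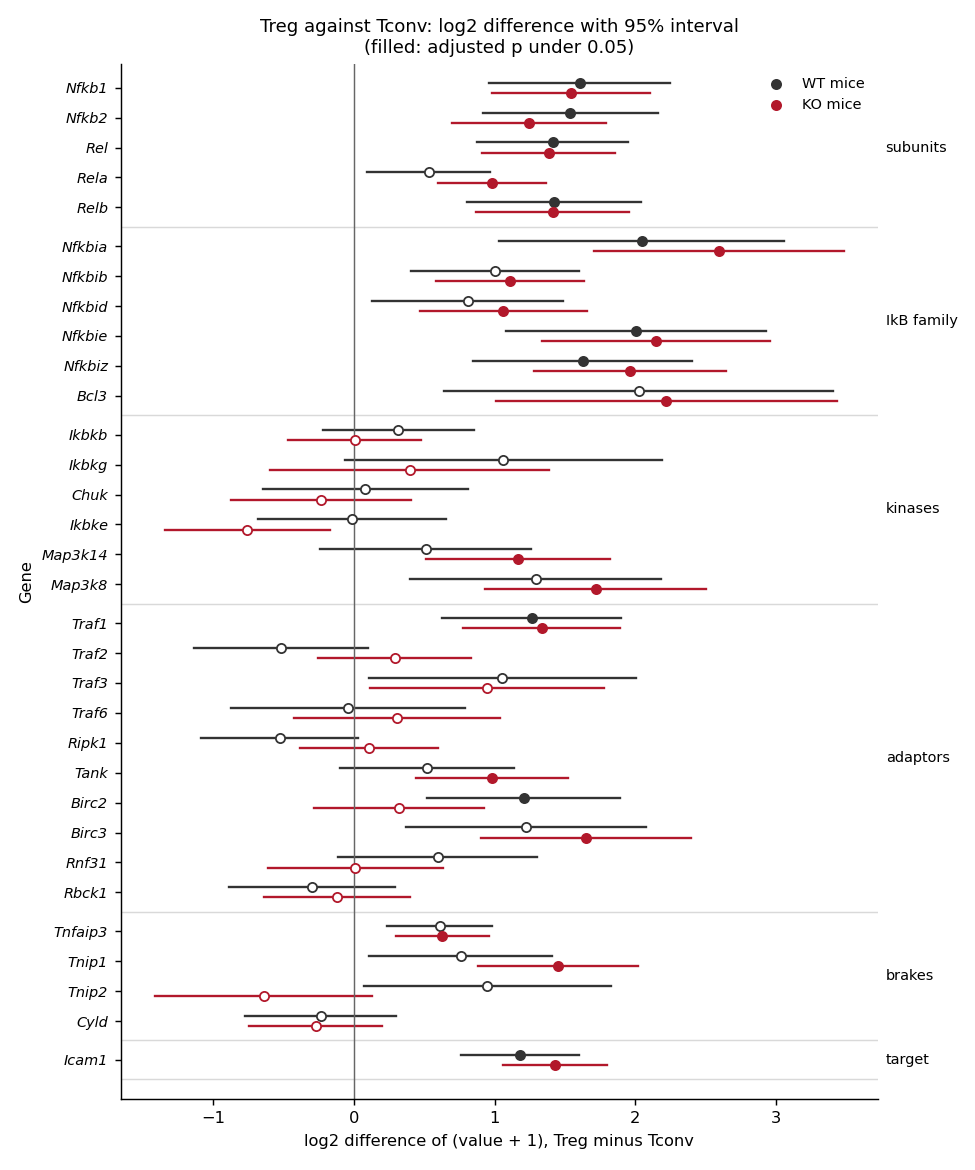
Log2 difference of the value plus 1, Treg minus Tconv, for the 32 members by role, with its 95% interval, in WT mice (black) and KO mice (red); filled circles passed at an adjusted p under 0.05. Subunits and IkB genes lie to the right of 0 in both genotypes, with filled circles for 4 of 5 and 3 of 6 in WT and for 5 of 5 and 6 of 6 in KO, while the IKK subunits Ikbkb, Ikbkg and Chuk have open circles throughout.

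The 5 subunits form the dimers that bind DNA. In KO mice all 5 were higher in Treg, and in WT mice 4 were. Values are listed in the order of the library numbers, so the third Treg WT value is from the library labelled Treg WT 3.

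Nfkb1 (chromosome 3, 135584655 to 135691547, minus strand) encodes a precursor that is cut to a DNA-binding subunit. It read 6948, 5541 and 11627 in Treg WT and 6518, 8385, 6285 and 7345 in Treg KO. In Tconv it read 3413, 1702, 3862 and 1782 in WT and 2270.2, 2416, 3788, 1614 and 2538 in KO. Every Treg library read above every Tconv library of either genotype, and the library labelled Treg WT 3 was the highest. Nfkb1 was 3.04-fold higher in Treg in WT mice, a log2 difference of 1.60 (SE 0.31, adjusted p = 0.00431). In KO mice it was 2.91-fold higher, a log2 difference of 1.54 (SE 0.27, adjusted p = 0.00103).

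Rel (chromosome 11, 23736847 to 23770970, minus strand), the subunit c-Rel, read 2557, 1872 and 3885 in Treg WT and 3452, 2940.1, 3142 and 3570.0 in Treg KO. In Tconv WT it read 1244, 661, 1327 and 899, and in Tconv KO 1333, 992, 1609, 1166 and 1229. Treg and Tconv did not overlap, also across genotypes. Its log2 difference was 1.41 (SE 0.26, adjusted p = 0.00279) in WT and 1.39 (SE 0.23, adjusted p = 0.000498) in KO.

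Rela (chromosome 19, 5637483 to 5648130, plus strand), the most widely used partner of the canonical branch, read 2302, 2321 and 2318 in Treg WT and 2519, 2975, 2929 and 3481 in Treg KO. It read 1821, 1215, 2053 and 1448 in Tconv WT and 1330.2, 1881, 1172, 1387 and 1845 in Tconv KO. The Treg WT libraries lay within a narrow range, and all Treg libraries read above all Tconv libraries. In WT the difference of 0.53 (SE 0.21, adjusted p = 0.192) did not pass, whereas in KO the difference of 0.98 (SE 0.18, adjusted p = 0.00178) did. Rela had the smallest difference of the 5 subunits in each genotype.

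The alternative branch was represented by Nfkb2 (chromosome 19, 46304320 to 46312385, plus strand) and Relb (chromosome 7, 19606217 to 19629438, minus strand), whose products pair with each other. Nfkb2 read 1567, 1436 and 2865 in Treg WT and 1951, 1961, 1739.8 and 2401 in Treg KO. In Tconv WT it read 617, 537, 1049.7 and 484, and in Tconv KO 808, 695, 1391, 709 and 777. The lowest Treg library, Treg WT 2, lay just above the highest Tconv library, Tconv KO 3. Its log2 difference was 1.54 (SE 0.30, adjusted p = 0.00473) in WT and 1.24 (SE 0.26, adjusted p = 0.00496) in KO.

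Relb read 707, 471 and 1157 in Treg WT and 1061, 1218, 1109.7 and 1135 in Treg KO. It read 320.5, 214, 305 and 257 in Tconv WT and 279, 551, 465, 497 and 384 in Tconv KO. Within each genotype Treg and Tconv did not overlap, but Treg WT 2 lay below Tconv KO 2 and Tconv KO 4. The log2 difference was 1.42 (SE 0.30, adjusted p = 0.00765) in WT and 1.41 (SE 0.26, adjusted p = 0.00155) in KO. Relb was not called in WT without the library labelled Treg WT 3 (1.09, adjusted p = 0.0686, where the alternatives ranged from 0.0019 to 0.107). The call of Nfkb1, Nfkb2 and Rel in WT held when any one library was left out.

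**Figure D2:**
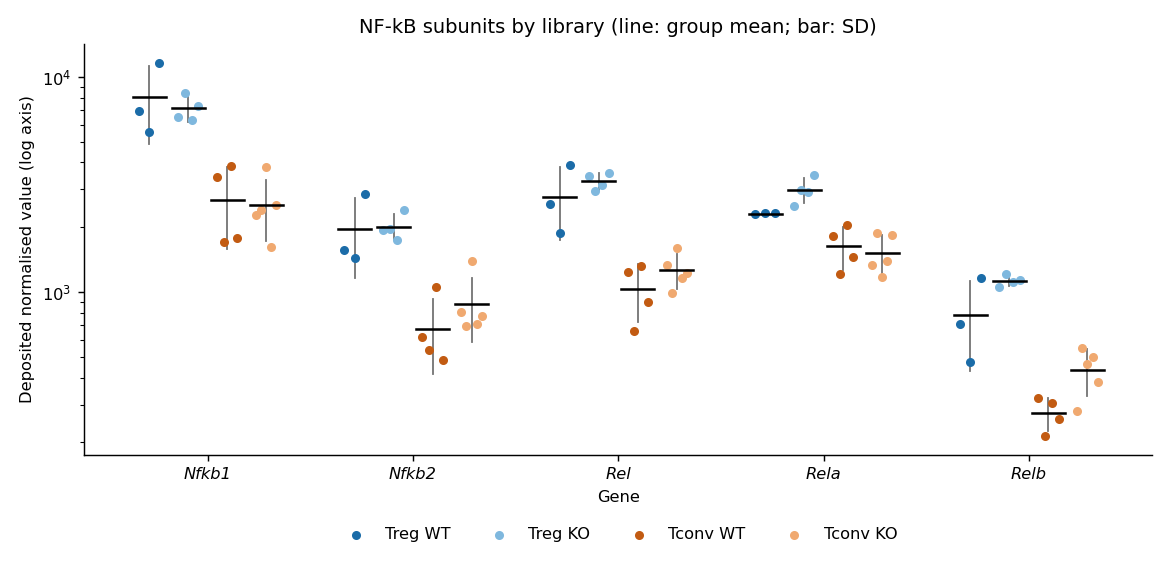
Deposited normalised value (log axis) of the 5 NF-kB subunits in each library, with a line at the group mean and a bar for 1 SD, for Treg (3 WT and 4 KO libraries) and Tconv (4 WT and 5 KO). For Nfkb1, Nfkb2, Rel and Rela every Treg point lies above every Tconv point, and for Relb the lowest Treg WT point lies among the Tconv KO points.

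Levels were also divided by the length of merged exon in kb, which joins the exons of all annotated transcripts of a gene. That length was 12.061 kb for Nfkb1 and 3.072 kb for Rela. Which transcripts the cells used was not measured, so the order of the genes depends on this length. On this scale Rela and Nfkb1 read highest of the subunits and Relb lowest. In Treg WT the mean level per kb (lowest to highest library) was 753 (749 to 755) for Rela, 666 (459 to 964) for Nfkb1 and 426 (313 to 625) for Nfkb2. For Rel it was 371 (251 to 520.2), and for Relb 200.1 (121 to 298). The ranges of neighbours in this order overlapped for every pair. In Tconv WT the level was 532 (395 to 668) for Rela and 223 (141 to 320.1) for Nfkb1, without overlap. Nfkb2 stood at 146 (105 to 229) and Rel at 138 (88.3 to 178) there, overlapping each other and Nfkb1, while Relb, at 70.3 (54.9 to 82.2), lay below all of them.

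The IkB family showed the highest differences. These proteins bind NF-kB dimers: Nfkbia, Nfkbib and Nfkbie encode the classical inhibitors IkB alpha, beta and epsilon, and Nfkbid, Nfkbiz and Bcl3 encode nuclear members that tune transcription. All 6 were higher in Treg in KO mice and 3 (Nfkbia, Nfkbie and Nfkbiz) in WT mice, with a median log2 difference of 2.05 and 1.81.

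Nfkbia (chromosome 12, 55489410 to 55492647, minus strand) read 68158, 20345 and 46796 in Treg WT and 62270, 37109, 78852 and 61089 in Treg KO. It read 15291, 5207, 17081 and 6618 in Tconv WT and 8559, 7593, 26248, 8567 and 5479.8 in Tconv KO. Within each genotype the groups did not overlap, though Tconv KO 3 read above Treg WT 2. Nfkbia was 4.12-fold higher in Treg in WT, a log2 difference of 2.04 (SE 0.48, adjusted p = 0.0181). In KO it was 6.04-fold higher, a log2 difference of 2.59 (SE 0.42, adjusted p = 0.000519), the largest of the 32 members. The call in WT was lost when Treg WT 1, Tconv WT 2, Tconv WT 4 or the library labelled Treg WT 3 was left out (adjusted p from 0.0585 to 0.0947), and the call in KO held under each alternative.

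Nfkbie (chromosome 17, 45555703 to 45563169, plus strand) read 1489, 1340.0 and 2702 in Treg WT and 2535, 2375, 1624 and 3499 in Treg KO. In Tconv it read 605, 303, 915 and 216 in WT and 524, 463, 1181, 368 and 461 in KO. Every Treg library read above every Tconv library. Nfkbie differed by a log2 value of 2.00 (SE 0.44, adjusted p = 0.0116) in WT and 2.14 (SE 0.39, adjusted p = 0.00137) in KO, and the first was not called without the library labelled Treg WT 3 (1.69, adjusted p = 0.0817, in a range of 0.000157 to 0.125 over the alternatives).

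Nfkbiz (chromosome 16, 55811375 to 55838899, minus strand) read 10038, 4637 and 8633 in Treg WT and 8616, 7131, 10634 and 9536 in Treg KO. It read 3693, 1436, 3739.8 and 1646 in Tconv WT and 2343, 1822, 4737, 1941 and 1574 in Tconv KO. Treg WT 2 and Tconv KO 3 stood side by side, and within each genotype the groups did not overlap. The log2 difference was 1.63 (SE 0.37, adjusted p = 0.0148) in WT and 1.96 (SE 0.33, adjusted p = 0.000617) in KO. In WT it was not called when Treg WT 1, Tconv WT 2, Tconv WT 4 or the library labelled Treg WT 3 was left out (adjusted p from 0.0523 to 0.0739).

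Nfkbib (chromosome 7, 28758251 to 28767512, minus strand) read 1168, 855 and 1450.0 in Treg WT and 1538, 1321, 1057 and 2057 in Treg KO. It read 544, 387, 766 and 627 in Tconv WT and 463, 892, 727, 648 and 698 in Tconv KO. The groups of each genotype did not overlap. The log2 difference was 1.00 (SE 0.29, adjusted p = 0.0536) in WT, which missed the threshold, and 1.11 (SE 0.25, adjusted p = 0.00822) in KO. Exons of Nfkbib overlap those of Ccer2 and Sirt2, and since the library protocol does not mark strand their reads cannot be told apart.

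Nfkbid (chromosome 7, 30421732 to 30428746, plus strand) read 6449.8, 3238 and 5638 in Treg WT and 6259, 5633, 7012 and 6483 in Treg KO. It read 3662, 1925, 3637 and 2383 in Tconv WT and 2752, 3375, 6268, 2275 and 1928 in Tconv KO. Tconv KO 3 reached the range of Treg KO, and Treg WT 2 lay within the range of Tconv WT. The log2 difference was 0.81 (SE 0.32, adjusted p = 0.2) in WT and 1.06 (SE 0.29, adjusted p = 0.0266) in KO. The KO call was lost under quantile scaling (0.78, adjusted p = 0.0753), with voom on whole reads (adjusted p = 0.0953) and without any one of Treg KO 1, 3 or 4 or Tconv KO 1, 4 or 5 (adjusted p from 0.0597 to 0.0842).

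Bcl3 (chromosome 7, 19808462 to 19822770, minus strand), which binds subunits without a transactivation domain, read 940.3, 247 and 793 in Treg WT and 592, 377, 757 and 772 in Treg KO. It read 228, 119, 432 and 31.4 in Tconv WT and 137, 199.7, 59.3, 164 and 129.8 in Tconv KO. Tconv WT libraries were spread widely, from 27 reads upwards, and Tconv WT 3 lay above Treg WT 2. For Bcl3 the log2 difference was 2.02 (SE 0.66, adjusted p = 0.0993) in WT and 2.22 (SE 0.58, adjusted p = 0.0226) in KO, and the KO call was lost without any one of Treg KO 1, 3 or 4 or Tconv KO 3 (adjusted p from 0.0537 to 0.0771).

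**Figure D3:**
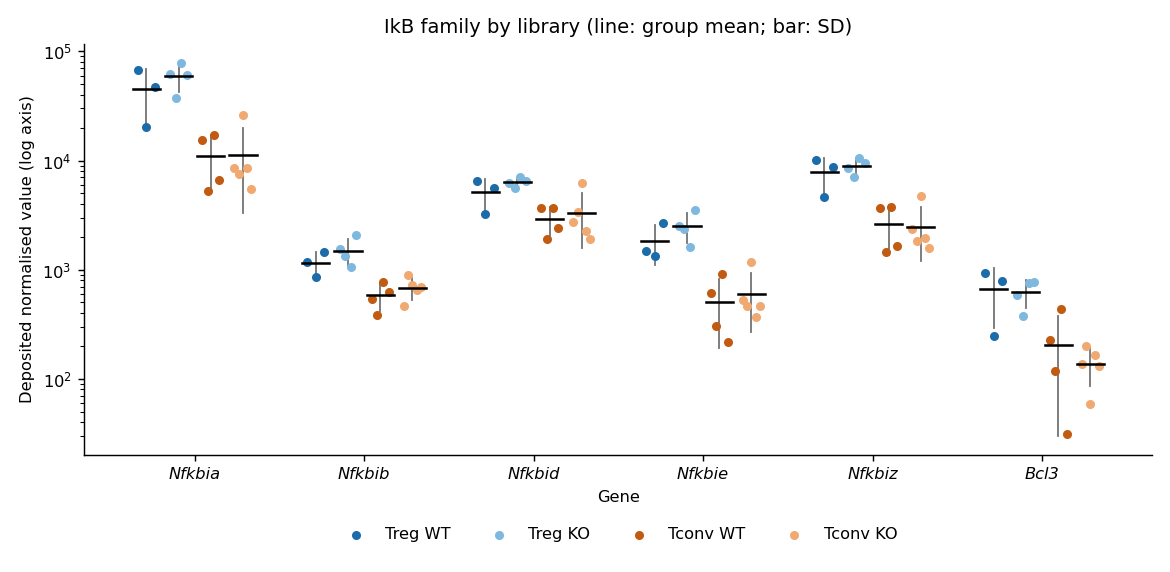
Deposited normalised value (log axis) of the 6 IkB family genes in each library, with a line at the group mean and a bar for 1 SD, for Treg (3 WT and 4 KO libraries) and Tconv (4 WT and 5 KO). Nfkbia reads 37109 or more in all Treg libraries except Treg WT 2 at 20345, and the highest Tconv point of Nfkbia, 26248, is Tconv KO 3.

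Among the kinases, those of the IKK complex itself were not called in either genotype. Ikbkb, its main catalytic subunit in the canonical branch, read 1320 ± 279 in Treg WT and 1097 ± 353 in Tconv WT. Its log2 difference was 0.32 (95% interval −0.22 to 0.86) in WT and 0.0032 (95% interval −0.47 to 0.48) in KO, so a 2-fold change lay outside both intervals. Chuk, the catalytic subunit of the alternative branch, had 0.08 (95% interval −0.65 to 0.81) in WT and −0.23 (95% interval −0.88 to 0.41) in KO.

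Ikbkg, the regulatory subunit NEMO, was at 466 ± 198 in Treg WT and 239.7 ± 140.1 in Tconv WT. Its difference was 1.06 (95% interval −0.067 to 2.19) in WT and 0.40 (95% interval −0.60 to 1.39) in KO, wide intervals that include a 2-fold change. Its exons overlap those of G6pdx. Ikbke, an IKK-related kinase, read 353, 766, 502 and 600.4 in Treg KO and 1182, 1272, 809.8, 709 and 705 in Tconv KO. Tconv KO 1 and Tconv KO 2 were the highest and the groups overlapped. In KO its difference was −0.76 (SE 0.28, adjusted p = 0.128), the smallest p of any member lower in Treg there, and in WT it was −0.013.

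Upstream of IKK, 2 kinases were higher in Treg in KO mice and neither was called in WT. Map3k14 (chromosome 11, 103219762 to 103267472, minus strand), the NF-kB-inducing kinase of the alternative branch, read 1431, 597 and 1855 in Treg WT and 1307, 1316, 1404 and 2196 in Treg KO. It read 827, 512, 1175 and 902 in Tconv WT and 650.4, 852, 793, 790.0 and 406 in Tconv KO. In KO the groups did not overlap, and in WT they did, with Treg WT 2 among the lowest of all libraries. The difference was 0.51 (SE 0.36, adjusted p = 0.545) in WT and 1.17 (SE 0.31, adjusted p = 0.0271) in KO. The KO call was lost without any one of Treg KO 3, Treg KO 4, Tconv KO 1 or Tconv KO 5 (adjusted p from 0.0566 to 0.114).

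Map3k8, a kinase that Nfkb1 protein holds inactive, read 1279, 657 and 1533 in Treg WT and 1372, 887, 1455 and 1151 in Treg KO. It read 693, 269, 434 and 479 in Tconv WT and 188, 299, 831, 505 and 265 in Tconv KO. The KO groups did not overlap, and in WT Treg WT 2 lay below Tconv WT 1. The difference was 1.29 (SE 0.43, adjusted p = 0.103) in WT and 1.72 (SE 0.37, adjusted p = 0.00652) in KO.

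The adaptors and ubiquitin enzymes carry the signal from receptor to IKK. Of the 10 measured, Traf1 and Birc2 were higher in Treg in WT, and Traf1, Tank and Birc3 in KO. Traf1 (chromosome 2, 34941750 to 34961772, minus strand), an adaptor of TNF family receptors, read 7534, 2966 and 9791 in Treg WT and 5538, 6045, 6988 and 8524 in Treg KO. It read 3278, 1826, 3050.4 and 2173 in Tconv WT and 2599, 2473, 3489.7, 2381 and 2455 in Tconv KO. Treg WT 2 was the exception among Treg libraries and lay below Tconv WT 1, Tconv WT 3 and Tconv KO 3. The difference was 1.26 (SE 0.30, adjusted p = 0.02) in WT and 1.33 (SE 0.27, adjusted p = 0.00325) in KO. The WT call was lost when Treg WT 1, Tconv WT 2, Tconv WT 4 or the library labelled Treg WT 3 was left out (adjusted p from 0.0575 to 0.149).

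Birc2 (chromosome 9, 7818227 to 7837064, minus strand) and Birc3 (chromosome 9, 7848699 to 7873186, minus strand) are neighbours on chromosome 9 that encode ubiquitin ligases of the cellular inhibitor of apoptosis family. Birc2 read 1000.5, 981 and 2161 in Treg WT and 1093, 1828, 987 and 1771 in Treg KO. It read 496, 559, 836 and 412 in Tconv WT and 1203, 744, 1613, 1082 and 1003 in Tconv KO. The WT groups did not overlap and the KO groups did, since 4 of the 5 Tconv KO libraries read above every Tconv WT library. The difference was 1.21 (SE 0.33, adjusted p = 0.041) in WT and 0.32 (SE 0.29, adjusted p = 0.634) in KO. The WT call was lost with no filter on low values (adjusted p = 0.0581) and with genotype and replicate number together as a block in the fit (adjusted p = 0.114). It was also lost when Tconv KO 1, 4 or 5, Tconv WT 1, 2 or 4, or the library labelled Treg WT 3 was left out (adjusted p from 0.051 to 0.247).

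Birc3 read 4272, 2533 and 3776 in Treg WT and 4622, 4066, 5246 and 4883 in Treg KO. It read 2149, 797, 3482 and 792 in Tconv WT and 1171, 1471, 2792, 1242 and 1231 in Tconv KO. Tconv WT split widely, with Tconv WT 1 and 3 high and Tconv WT 2 and 4 low, and in KO the groups did not overlap. The difference was 1.22 (SE 0.41, adjusted p = 0.106) in WT and 1.65 (SE 0.36, adjusted p = 0.00617) in KO.

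Tank (chromosome 2, 61578585 to 61654171, plus strand), a scaffold that binds TRAF proteins and IKK-related kinases, read 1079, 1029 and 1263 in Treg WT and 824, 1272, 1789 and 1683 in Treg KO. It read 983, 584, 1111 and 582 in Tconv WT and 863, 519.9, 727, 547 and 782 in Tconv KO. Treg KO 1 lay within the range of Tconv KO. The difference was 0.52 (SE 0.29, adjusted p = 0.41) in WT and 0.98 (SE 0.26, adjusted p = 0.0237) in KO, and the KO call was lost without any one of Treg KO 3, Treg KO 4, Tconv KO 2 or Tconv KO 4 (adjusted p from 0.0602 to 0.105).

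The other 6 adaptors and ligases were not called in either genotype. Traf3, which holds Map3k14 down, read 682 ± 142 in Treg WT and 369 ± 199.7 in Tconv WT, with a difference of 1.06 (95% interval 0.11 to 2.00) in WT and 0.94 (95% interval 0.11 to 1.78) in KO. Traf2, its partner, had −0.52 (95% interval −1.13 to 0.10) in WT and 0.29 (95% interval −0.25 to 0.83) in KO. Traf6, the ligase of the interleukin receptor and Toll-like receptor branch, had −0.045 (95% interval −0.88 to 0.79) and 0.31 (95% interval −0.42 to 1.04).

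Ripk1, the receptor-proximal kinase and scaffold, read 525, 415 and 479.6 in Treg WT against 592, 705, 687 and 744 in Tconv WT. It was the one member whose Treg WT libraries all lay below all Tconv WT libraries, and its difference of −0.53 (SE 0.27, adjusted p = 0.337) did not pass. In KO it was 0.10. Rnf31 and Rbck1, subunits of the linear ubiquitin ligase, had 0.0076 (95% interval −0.62 to 0.63) and −0.12 (95% interval −0.64 to 0.40) in KO, intervals that exclude a 2-fold difference. In WT Rbck1 had −0.30 (95% interval −0.89 to 0.29), which excludes it too, and Rnf31 had 0.59 (SE 0.34, adjusted p = 0.414), with an interval that includes it.

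The brakes were mixed. Tnfaip3 (chromosome 10, 19000910 to 19015657, minus strand), a ubiquitin-editing enzyme that ends IKK signalling, read 54918, 37013 and 51498 in Treg WT and 52983, 49665, 53677 and 51294 in Treg KO. It read 31796, 23805, 41621 and 28974 in Tconv WT and 32644, 37016, 40678, 31907 and 27333 in Tconv KO. The KO groups did not overlap, and the WT groups did through Treg WT 2 and Tconv WT 3. The difference was 0.61 (SE 0.18, adjusted p = 0.0636) in WT and 0.63 (SE 0.16, adjusted p = 0.0178) in KO. The KO call was lost under quantile scaling, at 0.24 (adjusted p = 0.31), and without Treg KO 3 (adjusted p = 0.0599) or Tconv KO 5 (adjusted p = 0.0582), and all alternatives lay between 0.00321 and 0.31.

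Tnip1 (chromosome 11, 54910785 to 54962917, minus strand), which brings Tnfaip3 to ubiquitin chains, read 1031, 750.3 and 2111 in Treg WT and 1961, 1416, 1316 and 2400.4 in Treg KO. It read 815, 616, 783 and 594 in Tconv WT and 723, 622, 719, 730.1 and 416 in Tconv KO. The KO groups were far apart, while Treg WT 2 lay among the Tconv WT libraries. The difference was 0.76 (SE 0.31, adjusted p = 0.211) in WT and 1.45 (SE 0.27, adjusted p = 0.00183) in KO. Tnip2, whose values are given with the deletion below, had 0.95 (SE 0.42, adjusted p = 0.261) in WT and −0.64 (SE 0.37, adjusted p = 0.385) in KO, on either side of 0. Cyld, a deubiquitinase, had −0.24 (95% interval −0.77 to 0.30) in WT and −0.27 (95% interval −0.75 to 0.20) in KO.

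Icam1 (chromosome 9, 21015985 to 21028817, plus strand), an adhesion molecule and a textbook NF-kB target, had the smallest p of all members in both genotypes. It read 4153, 3234 and 3169 in Treg WT and 5732, 3430.2, 5346 and 5483 in Treg KO. It read 1424, 1501, 1292 and 2046 in Tconv WT and 1817, 2072, 1669, 1750.5 and 1816 in Tconv KO. Every Treg library read above every Tconv library. Icam1 was 2.26-fold higher in Treg in WT, a log2 difference of 1.18 (SE 0.20, adjusted p = 0.00153). In KO it was 2.69-fold higher, a log2 difference of 1.43 (SE 0.18, adjusted p = 2.99e-05), and both calls held under each alternative. It was also the one member called in WT when the WT groups were fitted alone (adjusted p = 0.0357, in a range of 0.00047 to 0.0357 over the alternatives).

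Counted without a test, 12 members had all Treg WT libraries above all Tconv WT libraries, against 5.87% of all genes, and 1 (Ripk1) the reverse, against 6.1%. Without the library labelled Treg WT 3 these were 13 members, against 9.09% of genes, and 2 (Rbck1 and Ripk1), against 9.11%. In KO mice the count was 17 members, against 6% of all genes, and 0 the reverse, against 4.66%. In bulk RNA, fewer cells of a type and less RNA per cell cannot be told apart, and this holds for each difference between Treg and Tconv.

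Deletion of Hpgd in Treg moved no member past the threshold in either cell type. In Treg, 0 of 32 members were called in KO against WT, where 0.021% of genes (3 of 14319) were called, and 3 members had an unadjusted p under 0.05, where 6.22% of genes did. With voom on whole reads 0 genes were called and 650 had an unadjusted p under 0.05. The median log2 difference of the members was 0.20, against 0.075 over all genes, and 24 of 32 were above 0, against 55.9% of all genes. Among fits without 1 library, the median was lowest without Treg WT 2, at 0.042 with 18 above 0. It was highest without the library labelled Treg WT 3, at 0.398 with 24 above 0, and there too 3 members had an unadjusted p under 0.05.

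The member with the smallest p in Treg was Icam1, whose values are given above. Treg KO 2 lay within the range of Treg WT, and the other Treg KO libraries above it. Its difference was 0.49 (SE 0.20, adjusted p = 0.742). Tnip2 came next, with the other sign, and then Relb with 0.63 (SE 0.30, adjusted p = 0.796).

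Tnip2, a partner of Tnfaip3 and of Map3k8, had the smallest p of members lower in Treg KO. It read 356, 467 and 373 in Treg WT and 152, 408, 215 and 121 in Treg KO. It read 284, 98.4, 335 and 187 in Tconv WT and 350.0, 271, 313, 309 and 329 in Tconv KO. The Treg KO libraries differed among each other, with Treg KO 2 inside the range of Treg WT and the other 3 below it. The difference in Treg was −0.98 (SE 0.42, adjusted p = 0.758). In Tconv it had the other sign, 0.61 (SE 0.37, adjusted p = 0.933), and the difference between the effects, −1.59 (SE 0.56, adjusted p = 0.928), did not pass.

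All Treg KO libraries read above all Treg WT libraries for Rela and Ripk1, 2 members of 32, where 3.35% of all genes did, and no member showed the reverse, where 2.66% of genes did. Without the library labelled Treg WT 3 these were 7 members, against 6.83% of genes, and 0, against 6.66%. The difference was 0.35 for Rela (adjusted p = 0.84) and 0.43 for Ripk1 (adjusted p = 0.846). For the IkB genes, all 6 differences in Treg were above 0, between 0.079 and 0.52, and the smallest adjusted p among them was 0.885.

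The 95% intervals show what these group sizes could and could not detect. For Tnfaip3 the interval in Treg was 0.14 (95% interval −0.24 to 0.51), and for Rela 0.35 (95% interval −0.085 to 0.79), which exclude a 2-fold change. For Nfkbia it was 0.52 (95% interval −0.49 to 1.53) and for Bcl3 0.079 (95% interval −1.30 to 1.46), which do not.

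In Tconv, 0 of 32 members were called in KO against WT, where 0% of genes were, and 3 members had an unadjusted p under 0.05, where 5.45% of genes did. With voom on whole reads 0 genes were called and 1311 had an unadjusted p under 0.05. The median difference was 0.072, against 0.019 over all genes, and 19 of 32 were above 0, against 51.6% of genes. No member had all Tconv KO libraries above all Tconv WT libraries or the reverse, where 0.866% and 0.803% of genes did. The median of the members moved in both directions when 1 library was left out. It was −0.055 (14 above 0) without Tconv WT 2, −0.008 (14) without Tconv KO 3 and 0.025 (17) without Tconv WT 4. It was 0.109 (20) without Tconv KO 4, 0.166 (24) without Tconv WT 3, 0.185 (22) without Tconv KO 5 and 0.194 (23) without Tconv WT 1. The smallest p was that of Birc2, whose difference was 0.98 (SE 0.29, adjusted p = 0.824), followed by Relb with 0.64 (SE 0.26, adjusted p = 0.864) and Ikbke with 0.60 (SE 0.28, adjusted p = 0.9).

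Traf2, the adaptor that brings Birc2 and Birc3 to receptors, had the smallest p among members lower in Tconv KO. It read 697, 908, 1204 and 563 in Tconv WT and 738, 699, 661, 678 and 401 in Tconv KO. It read 772, 398 and 585 in Treg WT and 897, 783, 609.9 and 775 in Treg KO. The groups overlapped in both cell types. The difference was −0.38 (SE 0.26, adjusted p = 0.951) in Tconv, and its effect in Treg minus that in Tconv was 0.81 (SE 0.39, adjusted p = 0.928), the smallest p among members with a positive difference of effects.

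The difference between the deletion effects called 0 of 32 members, where 0% of genes were called, and 1 member (Tnip2) had an unadjusted p under 0.05, where 5.22% of genes did. With voom on whole reads 0 genes were called and 846 had an unadjusted p under 0.05. These comparisons share libraries with each other and with the comparisons of Treg and Tconv.

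**Figure D4:**
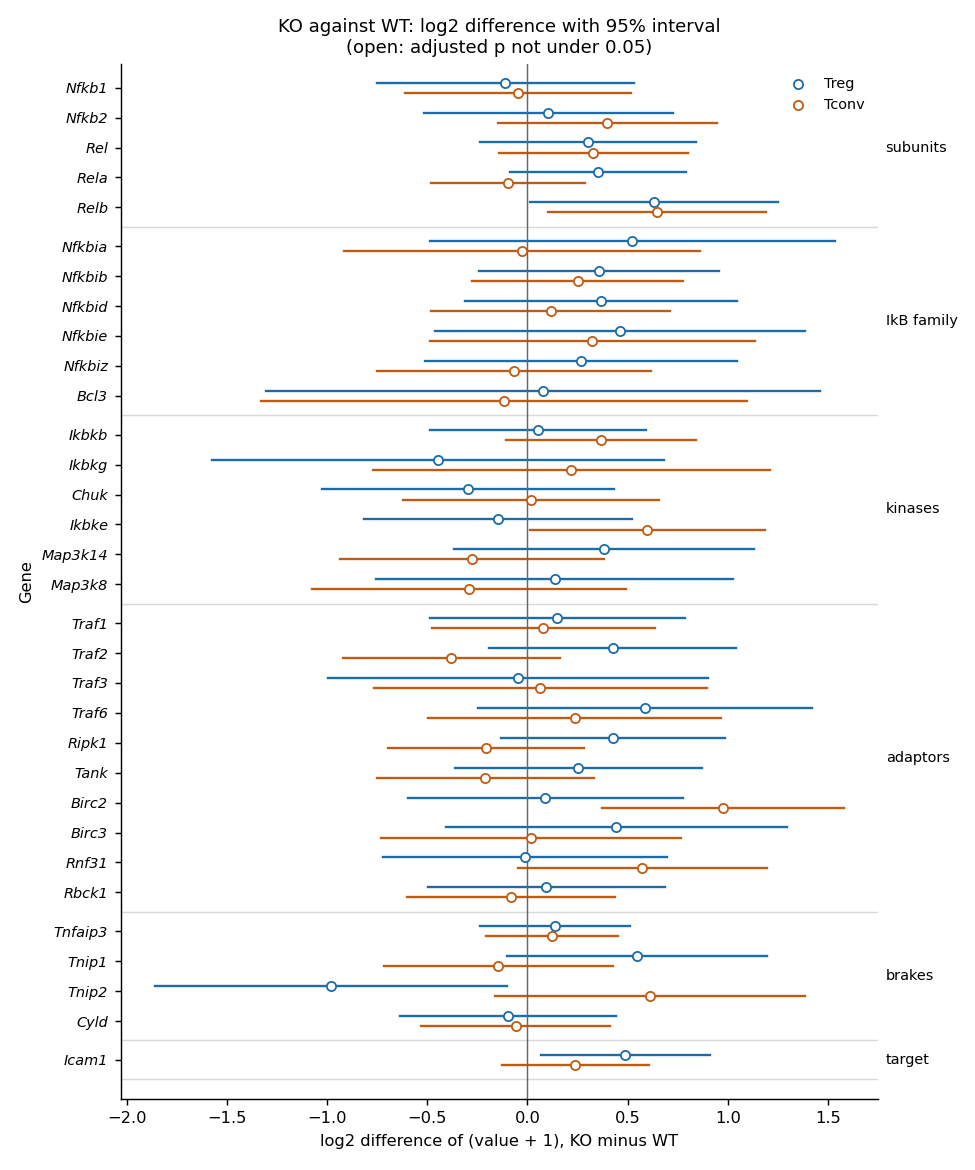
Log2 difference of the value plus 1, KO minus WT, for the 32 members by role, with its 95% interval, in Treg (blue) and Tconv (orange); open circles did not pass, which was the case for every member in both cell types. Icam1, Relb and Tnip2 in Treg and Birc2, Relb and Ikbke in Tconv have intervals that do not cross 0 before adjustment.

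In some libraries most members lay on one side of the group mean, which is given as a description. The deviation of each library from its group mean, on the log2 scale, had a median over the members of −0.42 in Treg WT 2, where 6 of 32 members lay above the group mean. It was 0.21 in the library labelled Treg WT 3 (26 of 32 above). In Tconv WT it was 0.28 in replicate 1 and 0.37 in replicate 3, but −0.36 in replicate 2 and −0.22 in replicate 4. In KO libraries the median lay between −0.099 and 0.121 in Treg and between −0.123 and 0.218 in Tconv. In Treg KO 4, at 0.121, 28 of 32 members lay above the group mean. Members of one library also went opposite ways: in Treg WT 2, Nfkbia deviated by −0.98, Cyld by 0.73 and Rnf31 by 0.74. Over all genes tested the median deviation lay between −0.037 and 0.054 in every library.

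Nfkbia, Nfkbie, Nfkbiz, Birc3 and Nfkb1 were high in Tconv WT 1, Tconv WT 3 and Tconv KO 3 and lower in the other Tconv libraries. The same 3 libraries stood apart for Il1rl1, a receptor of the interleukin family that marks VAT Treg, and for Pparg, a nuclear receptor of fat cells and VAT Treg, both looked at after their values were seen. Il1rl1 read 1566, 25.4, 1746 and 201 in Tconv WT and 72.8, 116, 2548, 190.1 and 116 in Tconv KO. Pparg read 316, 1.00, 485 and 23.5 in Tconv WT and 36.3, 19.7, 398, 4.99 and 8.11 in Tconv KO. Foxp3 did not follow them: Tconv WT 1 read 20.6, Tconv WT 3 read 1.00 and Tconv KO 3 read 1.89. Nor did every member: Bcl3 (59.3), Rela (1172) and Ripk1 (340) were each lowest of the Tconv KO libraries in Tconv KO 3. In Treg WT, Il1rl1 was lowest in Treg WT 2, at 1725 against 12534 and 14889. What these libraries share beyond the values given was not tested. With Tconv WT 1, Tconv WT 3 and Tconv KO 3 left out together, 15 members were called higher in Treg in WT and 19 in KO. There 536 genes in WT and 1017 in KO were called in all.

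**Figure D5:**
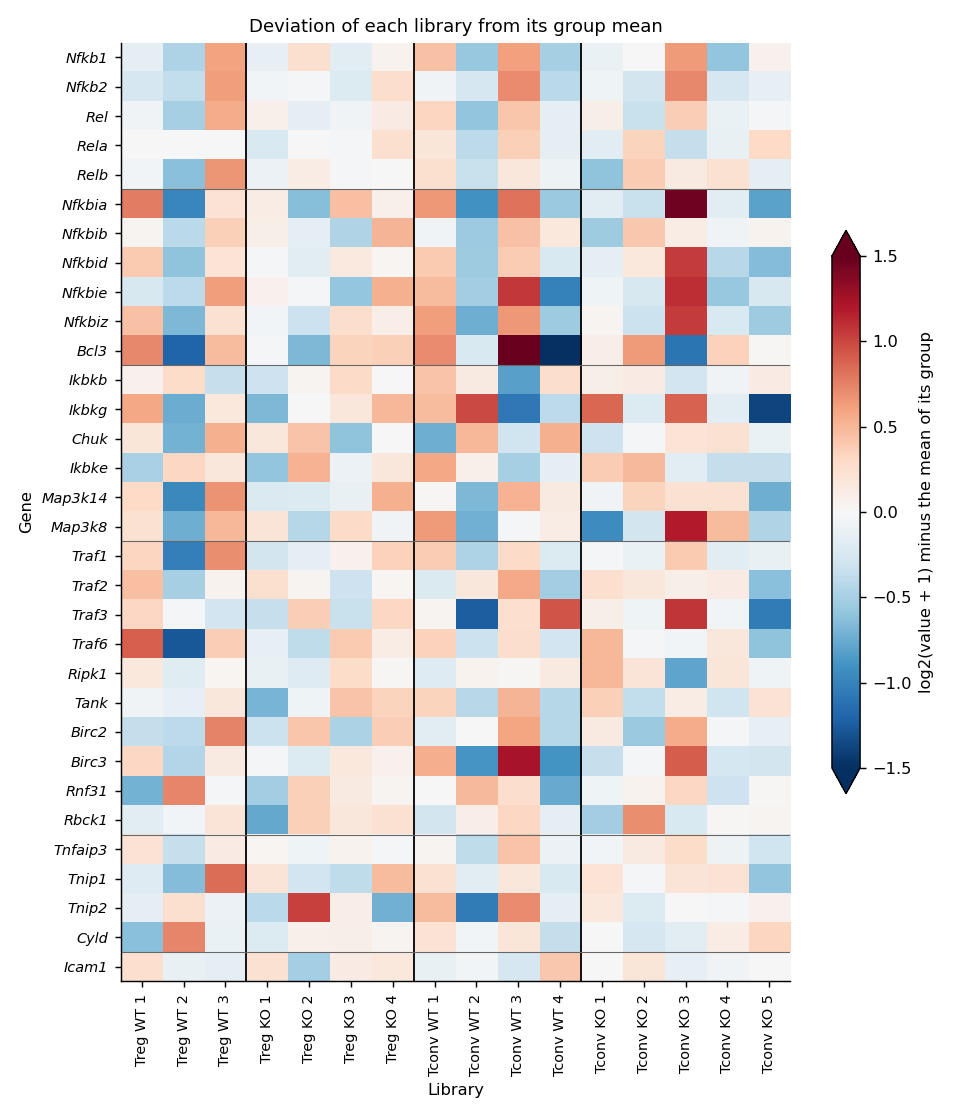
Deviation of each library from its group mean in log2 of the value plus 1 for the 32 members (rows, by role) in the 16 libraries (columns, by group), on a colour scale that ends at 1.5 in each direction. The columns of Treg WT 2 and Tconv WT 2 are mostly blue (6 and 9 of 32 members above the group mean), and those of Tconv WT 3 and the library labelled Treg WT 3 are mostly red (26 of 32 each). In Treg KO 4, 28 of 32 lie above the group mean, with a median deviation of 0.121.

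Other genes of the pathway were counted in the same way. Of 49 other signalling genes tested, 1 was higher (2.04%, against 2.2% of all genes) and 2 were lower (4.08%, against 1.98%) in Treg in WT. In KO 3 were higher (6.12%, against 4.16%) and 2 lower (4.08%, against 2.65%). The shares higher lay near those over all genes. In WT 0 were called without the library labelled Treg WT 3. Their median difference was −0.047 in WT and −0.001 in KO. Nod1, a sensor of bacterial cell wall, was lower in Treg in WT, with −2.65 (SE 0.67, adjusted p = 0.0261), and in KO, with −4.52 (SE 0.59, adjusted p = 4.81e-05). Prkcq, the kinase that links the T cell receptor to IKK, was lower with −0.66 (SE 0.19, adjusted p = 0.0492) in WT and −0.89 (SE 0.16, adjusted p = 0.00142) in KO. Irak2, a kinase of the interleukin receptor branch, was higher in WT, with 1.89 (SE 0.44, adjusted p = 0.0165). In KO, Irak3 was higher with 4.11 (SE 0.88, adjusted p = 0.00578), Traf4 with 2.21 (SE 0.37, adjusted p = 0.0006), and Zc3h12a, an RNase that degrades inflammatory transcripts, with 1.31 (SE 0.37, adjusted p = 0.0349).

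Of 31 receptors and ligands tested, 4 were higher (12.9%, against 2.2% of all genes) and 1 was lower (3.23%, against 1.98%) in Treg in WT. In KO 6 were higher (19.4%, against 4.16%) and 4 lower (12.9%, against 2.65%). Without the library labelled Treg WT 3, 2 (Tnfrsf4 and Tnfrsf18) were higher and 4 lower in WT. Tnfrsf4 (OX40) and Tnfrsf18 (GITR), receptors of the TNF family that Treg are known for, and Tnfrsf9 were higher in both genotypes, as was Il1rl1. Tnfrsf4 and Tnfrsf18 are also counted among the Treg markers below, so the 2 lists share genes. Tnfrsf9 read 1768 ± 1053 in Treg WT and 228 ± 138 in Tconv WT, a difference of 2.98 (SE 0.71, adjusted p = 0.0191). In KO it read 3182 ± 1156 and 143 ± 89.8, a difference of 4.83 (SE 0.63, adjusted p = 4.71e-05). Tnf itself was lower in Treg, with −1.40 (SE 0.26, adjusted p = 0.00287) in WT and −1.24 (SE 0.23, adjusted p = 0.00143) in KO. In KO, Cd28 was lower with −1.27 (SE 0.22, adjusted p = 0.00105), Tnfrsf1a with −3.45 (SE 0.77, adjusted p = 0.00771) and Tnfsf11 with −2.20 (SE 0.59, adjusted p = 0.0251).

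Of 41 other known target genes tested, 8 were higher (19.5%, against 2.2% of all genes) and 7 lower (17.1%, against 1.98%) in Treg in WT. In KO 10 were higher (24.4%, against 4.16%) and 8 lower (19.5%, against 2.65%), so known targets went both ways. In WT 5 were higher and 3 lower without the library labelled Treg WT 3. Those higher in both were Bcl2l1, Ebi3, Gadd45b, Il2ra, Ninj1, Pim1, Sdc4 and Sqstm1, of which Il2ra is also counted among the Treg markers below. Sdc4, a cell surface proteoglycan, read 3171 ± 1008 in Treg WT and 496 ± 372 in Tconv WT, a difference of 2.96 (SE 0.50, adjusted p = 0.00148), and its difference in KO was 4.52 (SE 0.44, adjusted p = 2.69e-06). Pim1, a survival kinase, had 2.16 (SE 0.38, adjusted p = 0.00182) in WT and 2.24 (SE 0.33, adjusted p = 0.000192) in KO. Il2, Ccl3, Ccl5, Bcl2, Slfn2 and Tnfaip8 were lower in both genotypes. The chemokine gene Ccl5 read 3776 ± 4143 in Treg WT and 18180 ± 5148 in Tconv WT, a difference of −2.79 (SE 0.66, adjusted p = 0.0188), and its difference in KO was −3.58 (SE 0.58, adjusted p = 0.000495).

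Genes of the immediate early and stress response, which handling of tissue can also induce, were counted beside the members. Of 12 tested, 1 (Dusp1) was higher in Treg in WT, with or without the library labelled Treg WT 3 (8.33%, against 2.2% of all genes), and 11 did not pass. In KO 4 (Atf3, Dusp1, Jun and Nr4a1) were higher (33.3%, against 4.16%), 1 (Egr1) was lower (8.33%, against 2.65%) and 7 did not pass. Their summed level ran from 76800 to 194000 in Treg WT and from 101000 to 158000 in Treg KO, and from 74400 to 95700 in Tconv WT and from 58400 to 95800 in Tconv KO. The median log2 difference of the 12 was 0.561 in WT and 0.75 in KO, against −0.004 and 0.035 over all genes tested. In each genotype 8 of the 12 had an unadjusted p under 0.05 in either direction. Of all 14319 genes tested, 2339 did in WT and 2678 in KO. Dusp1, a phosphatase of stress kinases, had a difference of 1.12 (SE 0.22, adjusted p = 0.00542) in WT and 1.43 (SE 0.19, adjusted p = 7.85e-05) in KO. The part of these genes in the result was not tested.

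Markers of the sorted cells went with the labels: all 6 Treg markers were higher in Treg in both genotypes (5 in WT without the library labelled Treg WT 3), and Cd3e and Cd4 had reads in every library. Among 7 T cell markers Cd2 was higher and Lck lower in Treg in both genotypes, though Cd2 was not called in WT without the library labelled Treg WT 3. Of 6 CD8 T and NK cell markers tested, Eomes, Gzmk and Klrd1 were lower in Treg in both genotypes. The summed level of that list ran from 20.5 to 220 in Treg and from 2080 to 6850 in Tconv, and Klrd1 had no reads in Treg. Macrophage markers summed to at most 280 in Treg, 222 in Tconv KO and 1080 in Tconv WT, with Cd68 lower in Treg in KO. Neutrophil markers summed to at most 2960 in Treg, 938 in Tconv KO and 15700 in Tconv WT, where S100a8 alone read 10195 in Tconv WT 1. Without Tconv WT 1, 9 members were called higher in Treg in WT, where 539 genes were called in all. Pecam1 of the stromal and endothelial list was lower in Treg in KO, Pf4 of the red cell and platelet list was lower in WT (not called without the library labelled Treg WT 3), and 0 of 3 dendritic, 0 of 4 B cell and 0 of 2 adipocyte markers tested were called. The part of these markers in the result was not tested.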

How the data were processed

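RNA was sequenced from Treg and Tconv sorted from VAT. Per the labels' protocols, cells were freed with collagenase and DNase, and 10 ng of RNA went into each SMART-seq2 library, a kind that does not mark strand, for a NextSeq 500 run. The sources used here name no sort markers. The authors deposited one table of a never-negative normalised signal for 19540 genes in 16 libraries. As its values show, each entry is a read count scaled by a factor for its library, with 1 added: of values under 1000 reads, 100% were whole numbers of reads to within 0.1, and library totals were worked out from these steps. Tools named in the submitters' processing notes, without roles, are R 3.3.1, DESeq2, Partek 6.6, kallisto 0.44 and CASAVA 1.8, with the build mm10. For the annotation behind the counts, the sources used here give no name.

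Groups came from sample titles. Log2 of the deposited value plus 1 was fitted with limma 3.58.1 (mean-variance trend, R 4.3.3) over all 16 libraries, without covariates. A gene was tested if 3 or more libraries read at least 10, which kept 14319 genes and all 32 members, each with 27 reads or more in every library. Adjusted p is 2-sided, from limma after Benjamini-Hochberg correction within a comparison, with a threshold of 0.05. Each group had 3 to 5 libraries, which limits precision. Fold changes are on the scale of the value plus 1.

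Members, lists, tests and alternatives were chosen with earlier results of these data known. Values per library are given for members that passed, for the subunits and for the member with the smallest p in each direction. From the other lists, up to 4 genes per direction were named. Positions and exon lengths are from GENCODE M21. Exons overlap another protein-coding gene for Nfkb2 (Psd), Nfkbib (Ccer2, Sirt2), Ikbkg (G6pdx), Ripk1 (Serpinb6a) and Rnf31 (Irf9), so those values are uncertain. The script was tested on simulated data. Alternatives were other pseudocounts, filters, scaling, priors, weights, fits and left-out libraries.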

Additional observations from a re-analysis of the deposited data

Results flagged for a closer look

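In groups of 4 or 5 libraries, 9 of the 96 groups looked at held a library far from the others by Dixon's outlier rule. The rule gives about 1 in 20 for independent, normally distributed values. The values here were not on a log scale and the groups share libraries. The share over all genes was not worked out, so no excess is read from this count. Of these, 6 were the highest value in Tconv KO 3, the deepest library. There Nfkbia read 26248 (next library 8567), Nfkbie 1181 (next 523.9), Nfkbiz 4737 (next 2343), Nfkb2 1391 (next 808), Traf1 3490 (next 2599) and Birc3 2792 (next 1471). Each rests on 9310 reads or more. Map3k14 was highest in Treg KO 4, at 2196 against 1404 in the next library. Traf2 was lowest in Tconv KO 5, at 401 against 661 in the next, and Icam1 was lowest in Treg KO 2, at 3430.2 against 5346. Without Tconv KO 3, 18 of 32 members were called higher in Treg in KO mice, where 984 genes were called in all.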

How the results depend on the processing

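Each result was recomputed under up to 29 alternatives, 16 of which left out 1 library each, and 2 of which, voom on whole reads and leaving out Treg WT 2 with Tconv KO 3, were chosen after seeing the data. The count of members higher in Treg in WT was 1 when the WT groups were fitted alone (161 genes in all, against 599) and 4 with voom on whole reads (288 genes in all), and it ranged from 4 to 14 when 1 library was left out, at the low end with 339 genes in all. Fitted alone, the KO groups gave 19 members (1140 genes in all, against 975 in the main fit). The main fit estimates the spread from all 4 groups together. What lowers the WT count in these 2 fits was not tested. In KO mice the count stayed between 14 and 19. The count was 0 for both deletion comparisons and their difference under each alternative, while calls among all genes in Treg ran from 0 to 17 (17 when Treg WT 1 was left out and 0 when the library labelled Treg WT 3 was). The 29 calls of single members kept their direction under each alternative, and 15 of them also kept passing under each.

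No label says whether libraries with the same replicate number came from the same animal. Over 7 pairs of Treg and Tconv libraries with the same number, the correlation of deviations was low, from 0.023 to 0.079. Each of the 7 Treg libraries correlated best with the Tconv library of its own number. The main fit did not use the numbers and treated all libraries as independent, so its p-values take no account of such pairs. With the replicate block, 10 members were called in WT (9 of them called without it; Birc2 was lost, at an adjusted p of 0.114) and 19 in KO, and 0 in the deletion comparisons. Count models of edgeR and DESeq2 were not run; voom was the one fit on whole reads. Fitting only the groups compared has no meaning for the difference of effects, which uses all 4. Each member had 27 reads or more in every library, so no member was limited by a count of 0.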
